A study of Mus musculus with 2 samples.

Results

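The 37 genes described here encode the core machinery of autophagy, and they were taken by gene symbol from the GENCODE M21 annotation. All 37 were found, among 22015 nuclear protein-coding genes and 55536 annotated genes. They fall into 6 roles: 5 genes of the initiation kinase complex, 6 of the class III phosphatidylinositol 3-kinase complex, 5 of phagophore growth, 11 of the conjugation machinery, 5 of the Atg8 family and 5 cargo receptors. RNA bound to chromatin was isolated from primary macrophages grown from the bone marrow of C57BL/6J mice, depleted of ribosomal RNA and sequenced. Both libraries belong to 1 group, the 0 minute point of a lipid A stimulation at 100 ng/ml, and no genetic change is named in the labels. Replicate 1 was made from 250 ng of RNA and replicate 2 from 500 ng. The labels number them as biological replicates but give the same donor entry for both, so the spread between them may be partly technical, and sex and age were not collected. With 1 group there is no comparison of conditions and no p-value.

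Autophagy encloses cytoplasm in a double membrane, the phagophore, which closes into an autophagosome and fuses with the lysosome. A kinase complex starts the process, a lipid kinase complex marks the membrane with phosphatidylinositol 3-phosphate, lipid transfer proteins feed its growth, and a ubiquitin-like conjugation system attaches Atg8 proteins (LC3 and GABARAP) to it, where cargo receptors bind. In macrophages the same proteins also act in the clearance of bacteria and in LC3-associated phagocytosis. RNA on chromatin includes transcripts that are still being made and are not fully spliced, so its levels describe nascent and chromatin-held RNA rather than the mRNA of the cytoplasm.

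Sequences at exon-intron boundaries are given first, because much of the members' RNA was assigned to transcripts that run across such boundaries. Each line shows 15 coding bases in lower case and the 15 intron bases that follow in capitals, 5′ to 3′ on the gene's strand, in mm10 (GRCm38) coordinates. In each case the named retained-intron transcript, a GENCODE class for transcripts that hold sequence which other transcripts of the gene splice out, continues into the capitals, whereas the gene's CCDS (consensus coding sequence) transcript is spliced there.
Map1lc3b-202, chr8:121593531-121593560, plus strand: cccaccaagatcccaGTAGGTTCTCCTGCC
Sqstm1-207, chr11:50206008-50206037, minus strand: ccctcagccctctagGTGAGTGAGCTTTCT
Nbr1-216, chr11:101576395-101576424, plus strand: atgacatcagaggagGTAAGCCAGGCTCTC
Becn1-210, chr11:101296243-101296272, minus strand: catccccccagccagGTGCTTACTATTCCT
Uvrag-202, chr7:98979621-98979650, minus strand: agaaaaggagcgagaGTAAGTGTCTTTTGT
Atg16l1-204, chr1:87785982-87786011, plus strand: tccgcagcaaagtctGTGAGGAAATGCAGT
Pik3r4-204, chr9:105678306-105678335, plus strand: gctggctgtgcatagGTAAGCCAGCCGCCG
All 7 introns open with GT. Not every such boundary in the members does, since retained-intron transcripts also run into an intron that opens with GC (Sqstm1-203) or AT (Atg9a-203).

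The ends of the 5 Atg8 coding sequences are shown because the protein is cut after its last glycine and joined to membrane lipid through it. The last glycine codon is in capitals, and each sequence ends with the stop codon.
Map1lc3a: tacgcctcccaagaaaccttcGGCttctga
Map1lc3b: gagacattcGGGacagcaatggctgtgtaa
Gabarap: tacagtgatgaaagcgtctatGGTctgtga
Gabarapl1: tacagtgatgaaagtgtctatGGAaaatga
Gabarapl2: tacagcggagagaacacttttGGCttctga
That glycine was codon 120 in Map1lc3a and Map1lc3b and codon 116 in the 3 GABARAP genes. It was followed by 5 further codons in Map1lc3b and by 1 in each of the other 4.

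The libraries held 10970767 and 14207280 expected counts, of which 10933708 and 14168886 lay on annotated genes. The 37 autophagy genes took 24636 and 34529, or 0.225% and 0.244% of the counts on annotated genes. Levels are in TPM, which corrects each library's counts for transcript length and depth. All 10 macrophage markers reached 1 TPM in both replicates, with a median of 37.9 TPM. Of 40 markers of 8 other cell types, 6 did so and 15 had no count. Their summed level was 75.8 TPM in replicate 1 and 64.0 TPM in replicate 2, most of it from Vwf, an endothelial clotting factor gene, at 51.4 and 49.99 TPM. The other 5 were Pf4 of megakaryocytes and platelets (11.98 and 3.50 TPM), Itga2b of the same lineage (2.64 and 1.01), the endothelial receptor gene Kdr (1.93 and 3.16), the erythropoietin receptor gene Epor (2.67 and 2.31) and the dendritic cell gene Zbtb46 (1.47 and 1.67). A separate deposited quantification, called here the second transcript table, put 12 of the 40 at 1 TPM or more in both replicates, with sums of 77.9 and 118 TPM. Among them was the T cell gene Cd3d, at 8.34 and 10.8 TPM there and at 0.07 and 0 TPM in the first table. The T cell gene Cd8a was at 2.43 and 3.24 TPM there, against 0.13 and 0.06 TPM in the first table. The T cell gene Cd3g (1.10 and 1.23 TPM) and the neutrophil gene Mpo (1.15 and 1.64 TPM) had no count in the first table. The stromal gene Col1a1 was at 1.02 and 1.74 TPM in the second table, against 0.17 and 0.27 TPM in the first. The dendritic cell gene Siglech was at 2.07 and 2.11 TPM in the second, against 0.38 and 0.33 TPM in the first. In the first table none of the 5 markers each of T cells, B cells, neutrophils and stromal cells reached 1 TPM in both replicates. The part of other cells in the autophagy levels was not tested. In such bulk samples, fewer cells that use a gene and less of its RNA per cell cannot be told apart.

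Of the 37 genes, 36 reached 1 TPM in both replicates, beside 46.7% of nuclear protein-coding genes. The median of their mean levels was 20.1 TPM, and the replicate medians were 20.02 and 19.9 TPM (SD 0.0849, n = 2). That SD does not show the spread of single members, which reached 9.97 TPM for Atg7. The median was 11.1 TPM over the protein-coding genes that reached 1 TPM and 0.72 TPM over all protein-coding genes. Among the 22015 protein-coding genes, 13 of the 37 ranked in the top 10%. The spread among members was wide: 8 genes were at 50 TPM or more, 19 at 20 TPM or more, 9 between 10 and 20 TPM and 9 under 10 TPM. The cargo receptors had the highest group median, 53.2 TPM, and the Atg8 genes the lowest, 9.92 TPM. The class III kinase complex had a median of 31.5 TPM, the conjugation machinery 21.6 TPM, phagophore growth 17.4 TPM and the initiation complex 16.6 TPM. The cargo receptors also led when only CCDS transcripts were counted, at 22.5 TPM, but there the class III complex was lowest, at 3.33 TPM, below the Atg8 genes at 5.62 TPM. In the second transcript table the cargo receptors were again highest and the Atg8 genes lowest, at 51.0 and 15.8 TPM. The initiation complex stood at 31.1 TPM there, near the class III complex at 31.3 TPM. On CCDS transcripts of that table the Atg8 genes, at 8.56 TPM, came next after the cargo receptors at 22.3 TPM.

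**Figure D1:**
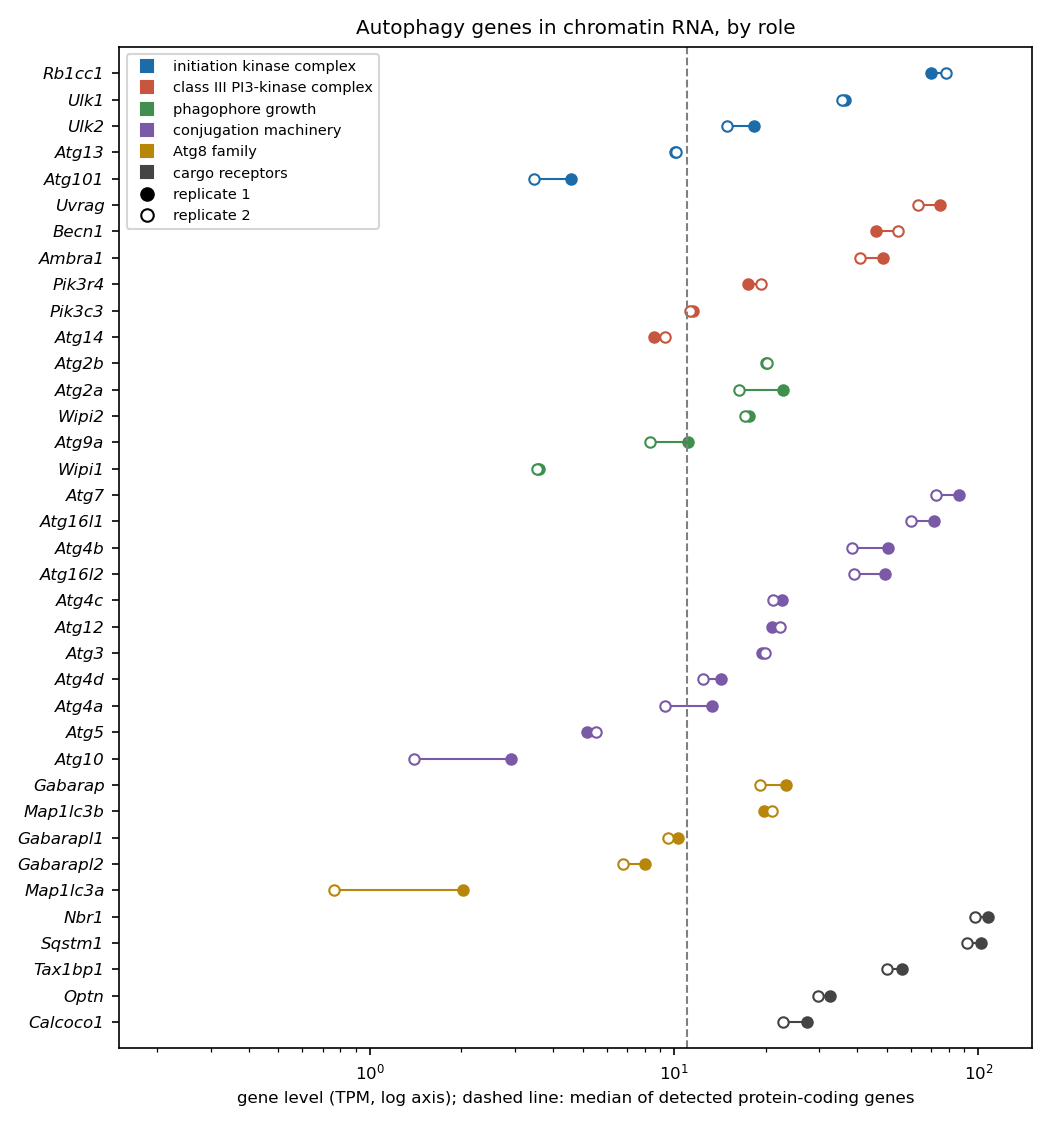
Level of each of the 37 autophagy genes in TPM (log axis), grouped by role and ordered by mean within each role, with filled points for replicate 1 and open points for replicate 2. The dashed line is the median of detected protein-coding genes, 11.1 TPM; the cargo receptors all lie to its right, while Map1lc3a and Atg10 lie far to its left with wide gaps between their replicates.

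Cargo receptors carry ubiquitin-marked or other selected material to the Atg8 proteins on the phagophore. Nbr1, a ubiquitin-binding receptor, stood highest of all 37 genes at 108 and 97.3 TPM in replicates 1 and 2, rank 376 among protein-coding genes. Sqstm1, which encodes p62 and is also a signalling hub in macrophages, followed at 102 and 91.5 TPM, rank 417. Within each replicate Nbr1 was 1.06 times Sqstm1, although the pair's ranges across the libraries overlapped. Tax1bp1, a receptor that also restrains inflammatory signalling, was at 56.2 and 50.2 TPM. Optn (optineurin, a receptor for bacteria and mitochondria) was at 32.5 and 29.8 TPM, and Calcoco1, a receptor for endoplasmic reticulum and Golgi membrane, at 27.3 and 22.8 TPM. All 5 were lower in TPM in replicate 2, by 1.09 to 1.20 times, as were 60.2% of detected protein-coding genes. In counts scaled between the libraries, described below, Nbr1 was instead higher in replicate 2, at a log2 ratio of 0.095. The other receptors ran from -0.14 (Calcoco1) to -0.02 (Sqstm1) on that scale. Below Sqstm1 the TPM values of neighbouring receptors did not overlap between replicates.

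In the Atg8 family, Gabarap (23.4 and 19.2 TPM) and Map1lc3b, which encodes LC3B (19.8 and 21.04 TPM), were highest, and which of them led differed between the replicates. Gabarapl1 was at 10.3 and 9.51 TPM, and Gabarapl2, which encodes GATE-16, at 8.0 and 6.78 TPM. Map1lc3a, which encodes LC3A, was the lowest of the 37 genes, at 2.03 and 0.76 TPM. Its values rested on 13 and 9 counts, with exact 95% Poisson intervals of 6.92 to 22.2 and 4.12 to 17.1, which cover counting error only. It was the single member under 1 TPM in a replicate. In the second transcript table LC3A was again lowest, but the other 4 were closer together: Gabarap at 16.5 and 26.3 TPM, Gabarapl1 at 13.1 and 18.6, Map1lc3b at 12.2 and 20.3, and Gabarapl2 at 10.2 and 13.96.

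The initiation complex receives signals from nutrient-sensing kinases. Its scaffold Rb1cc1 (FIP200) was highest at 69.6 and 78.3 TPM, and was 1 of 10 members that were higher in TPM in replicate 2. The kinase gene Ulk1 was at 36.4 and 35.5 TPM and its paralogue Ulk2 at 18.3 and 14.95 TPM, so Ulk1 exceeded Ulk2 by 1.99 and 2.38 times. Atg13, the adaptor that links kinase and scaffold, was at 10.04 and 10.1 TPM. Atg101, which stabilises Atg13, was lowest at 4.59 and 3.45 TPM, on 36 and 42 counts.

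The class III kinase complex makes phosphatidylinositol 3-phosphate. Uvrag, a subunit of the endosomal form of the complex, was highest at 74.9 and 63.4 TPM. Atg14, the subunit that directs the autophagy form to the phagophore, was lowest at 8.59 and 9.31 TPM, so the gene level of Uvrag exceeded that of Atg14 by 8.71 and 6.81 times. Between them lay Becn1, the Beclin 1 scaffold, at 45.9 and 54.5 TPM, and Ambra1, a regulator of Beclin 1, at 48.6 and 40.7 TPM, with overlapping replicates. The regulatory kinase gene Pik3r4 (VPS15) was at 17.5 and 19.3 TPM, and the catalytic subunit gene Pik3c3 (VPS34) at 11.6 and 11.3 TPM.

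In absolute TPM, genes of phagophore growth lay in a narrower band, with mean levels from 3.565 to 20.1 TPM. Atg2b (20.0 and 20.2 TPM) and Atg2a (22.8 and 16.3 TPM) encode lipid transfer proteins, and their replicates overlapped. Wipi2, which binds phosphatidylinositol 3-phosphate and recruits the conjugation machinery, was at 17.6 and 17.1 TPM. Its paralogue Wipi1 was lowest of the group at 3.60 and 3.53 TPM, 4.89 and 4.85 times below Wipi2. Atg9a, a membrane protein of the vesicles that seed the phagophore, was at 11.1 and 8.34 TPM. Part of the Atg9a value cannot be separated, since 31.8% of its exonic bases also belong to the gene model Gm29253 on the same strand.

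In the conjugation machinery the E1-like enzyme gene Atg7 was highest, at 86.4 and 72.3 TPM, and Atg10, the E2-like enzyme that attaches Atg12 to Atg5, was lowest at 2.91 and 1.40 TPM on 36 and 29 counts. Atg3, the E2-like enzyme for Atg8 proteins, was at 19.5 and 19.9 TPM. The scaffold gene Atg16l1, a Crohn's disease risk gene, stood at 71.6 and 59.9 TPM, and its paralogue Atg16l2 at 49.4 and 39.1 TPM. Of the conjugate itself, Atg12 was at 21.02 and 22.3 TPM and Atg5 at 5.17 and 5.53 TPM. Among the 4 proteases that trim Atg8 proteins before their attachment, Atg4b led at 50.4 and 38.6 TPM, then Atg4c at 22.6 and 21.2 TPM, then Atg4d (14.2 and 12.5 TPM) and Atg4a (13.3 and 9.33 TPM), whose ranges overlapped across the libraries. The 2 enzymes that act in turn on Atg12 differed widely, with Atg7 at 29.7 and 51.7 times the level of Atg10. That ratio was 10.7 and 16.96 on CCDS transcripts, and 14.4 and 18.8 in the second transcript table.

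The replicates were then compared as the log2 ratio of replicate 2 to replicate 1, on expected counts scaled by TMM (a normalisation that trims extreme genes). Among 34 members that averaged 50 counts or more, the median was -0.003, with 17 genes above 0 and 17 below, and the range ran from -0.29 to 0.26. The median over all 10984 genes tested was 0.02, and their central 95% ran from -0.50 to 0.54. No member passed 2-fold in either direction, beside 0.182% of all genes that were higher in replicate 2 and 0.209% that were lower. The largest ratios belonged to Atg14 (137 and 230 counts, log2 ratio 0.26), Gabarapl1 (142 and 233 counts, 0.23) and Atg12 (500 and 816 counts, 0.22). The smallest were those of Atg2a (965 and 1109 counts, -0.29), Gabarapl2 (102 and 123 counts, -0.22) and Wipi1 (82 and 103 counts, -0.16). The 95% counting interval of the ratio lay above 0 for 6 members (Rb1cc1, Becn1, Pik3r4, Atg12, Map1lc3b and Nbr1), beside 16.9% of all genes. It lay below 0 for 3 (Atg2a, Uvrag and Atg7), beside 12.9%. In TPM, 27 of the 37 were lower in replicate 2, beside 60.2% of detected protein-coding genes. Atg10, Map1lc3a and Atg101 were below 50 counts, and their log2 ratios of -0.79, -0.97 and -0.26 are given without a call.

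**Figure D2:**
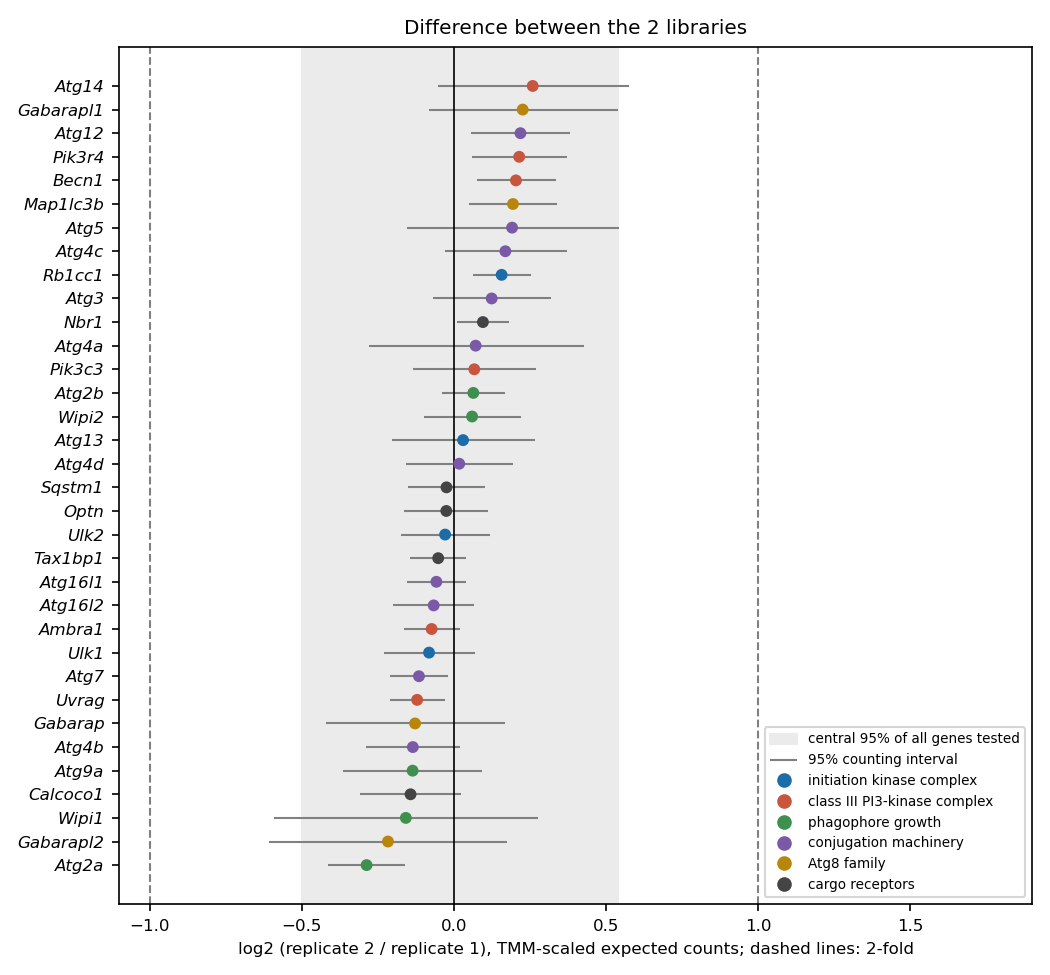
Log2 ratio of replicate 2 to replicate 1 for the 34 autophagy genes that averaged 50 counts or more, with 95% counting intervals as bars and colours for roles. All 34 points lie inside the grey band that holds the central 95% of all genes tested, between Atg2a at -0.29 and Atg14 at 0.26, and well within the dashed 2-fold lines.

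The gene level of an autophagy gene was in many cases far from the level assigned to its coding transcripts. The 37 genes have 266 annotated transcripts, of which 86 are of the retained-intron class, and 25 genes have both such a transcript and at least 100 counts in each replicate. Retained-intron transcripts took a median of 56.7% and 55.4% of the TPM of these 25 genes (mean of replicates 56.0%, SD of the 2 medians 0.909 percentage points), against 49.1% over 5091 genes under the same rule. In 17 of the 25 the share was 50% or more, beside 48.2% of all such genes, and in 15 it was so in both replicates. The single leading transcript was of this class in 16 of the 25, beside 47.7% of all genes. The other 12 genes have no annotated transcript of this class. Some of them hold transcripts of other classes that run across exon-intron boundaries, such as Atg4c-202 (54.8% and 47.2% of TPM) and Optn-203 (35.0% and 31.8%). The share of the class is thus not a full measure of intron-holding RNA. TPM divides by transcript length and counts do not: as a share of expected counts the median was 25.7% for the members and 31.5% for all genes, and 8 of the 25 had 50% or more, beside 30.8% of all such genes. Over the summed counts of all 37 genes, 31.8% and 32.1% lay on retained-intron transcripts, against 25.03% and 25.2% over all protein-coding genes. The order of members and background thus differed between these measures.

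**Figure D3:**
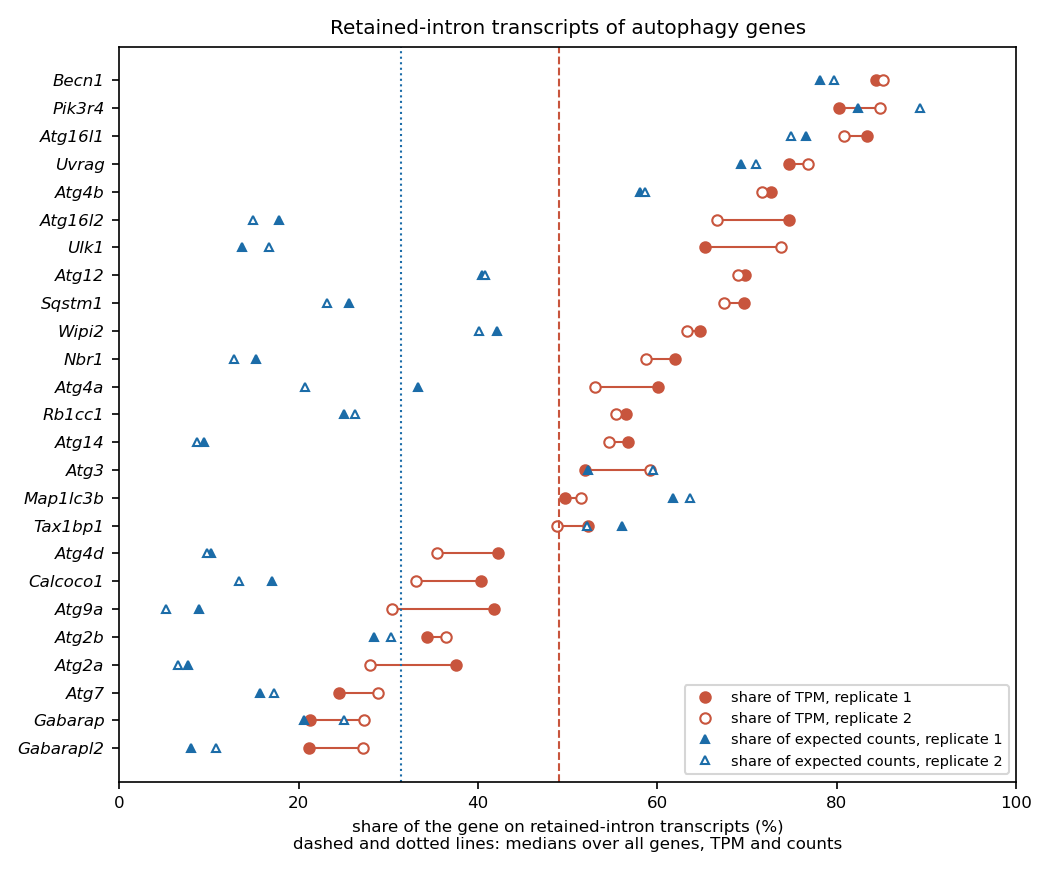
Share of each gene on retained-intron transcripts in percent, for the 25 autophagy genes with such a transcript and at least 100 counts in each replicate: red circles for the share of TPM, blue triangles for the share of expected counts, filled for replicate 1 and open for replicate 2. Becn1, Pik3r4, Atg16l1 and Uvrag are high on both scales, whereas Atg16l2 is at 74.7% and 66.6% of TPM but 17.8% and 14.9% of counts; the dashed and dotted lines are the medians over all genes, 49.1% of TPM and 31.5% of counts.

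In the first transcript table Becn1 had the highest share of TPM, 84.4% and 85.2%, with 78.1% and 79.7% of its counts. In the second table its share was 52.8% and 49.5%, place 13 of the 25, and Atg16l1 led there with 85.3% and 83.5%. Its leading transcript, Becn1-210, retains the intron whose start is printed above and took 30.6% and 26.9% of the TPM. Reads of Becn1 and of its neighbour cannot be told apart fully here, since 43.9% of the exonic bases of Becn1 are shared with Cntd1 on the opposite strand and no source used here gives the strand setting of the counting. Any shared exonic bases were found in 13 members, beside 29.7% of protein-coding genes, and over 10% was shared in 6, beside 12.6%, among them Atg4d with Kri1 (19.3%). After Becn1 in the first table came Pik3r4 with 80.3% and 84.9%, Atg16l1 with 83.4% and 80.8%, and Uvrag with 74.7% and 76.9%. For Pik3r4 the second table gave 63.2% and 75.5%, and for Uvrag 32.01% and 36.1%. In Uvrag 1 transcript, Uvrag-202, held 52.0% and 52.5% of the TPM in the first table. It continues into an intron of 39666 bases. Of the exonic bases of Uvrag, 17.6% are shared with the opposite-strand gene model Gm45187. In Atg16l1 no single transcript led as far: Atg16l1-208 took 20.1% in both replicates and Atg16l1-204 took 19.0% and 20.0%, and both run into the intron of 244 bases that begins in the printed sequence. The lowest shares were those of Gabarapl2 (21.2% and 27.1%), Gabarap (21.3% and 27.3%) and Atg7 (24.5% and 28.8%). The same 3 genes were lowest in the second table, where Atg7 was at 8.79% and 8.94%.

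In both of the most abundant receptors the share differed strongly between the scales. Retained-intron transcripts took 69.6% and 67.5% of the TPM of Sqstm1 but 25.6% and 23.2% of its counts. The leading Sqstm1-207, of 585 bases, held 34.5 and 28.2 TPM, while the 2037-base coding transcript Sqstm1-202 held 18.1 and 18.5 TPM. In Nbr1 the class took 62.0% and 58.7% of the TPM but 15.2% and 12.8% of the counts. Of the exonic bases of Sqstm1, 17.3% are shared with Mrnip on the opposite strand.

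To set coding transcripts beside whole genes, TPM was summed over transcripts with a CCDS tag, that is, those whose coding sequence is agreed between annotation projects. A transcript without the tag can still be coding. The members' median was 20.1 TPM for the whole gene and 6.66 TPM for CCDS transcripts. In 33 members with at least 100 counts the CCDS share of TPM had a median of 35.3%, against 37.4% over 7180 protein-coding genes, and it was under 50% in 25 of the 33, beside 65.8% of all such genes. Nbr1 (34.1 and 32.1 TPM), Sqstm1 (30.9 and 29.8 TPM) and Atg7 (24.7 and 23.8 TPM) remained the 3 highest members, and Tax1bp1 and Optn came next at 22.5 and 19.7 TPM on average. The CCDS transcripts of the second table put the same 5 genes highest, led by Atg7. Others moved far. Becn1 went from place 8 among the 37 to place 29, with 3.01 and 2.37 TPM on CCDS transcripts, and Uvrag from place 5 to place 21, with 6.34 and 6.39 TPM. Rb1cc1 went from place 4 to place 17. In the second table Becn1 was at place 30 on CCDS transcripts, Uvrag at 21 and Rb1cc1 at 29. In the first, 3 members were under 1 TPM in a replicate: Map1lc3a, Wipi1 and Pik3c3. For Pik3c3 the CCDS transcript had 0 and 1.29 TPM, while the coding transcripts without the tag Pik3c3-202 and Pik3c3-201 held 5.19 and 5.32 TPM and 3.52 and 3.13 TPM. In Wipi1 the untagged coding transcript Wipi1-201 was at 1.91 and 1.08 TPM and the tagged one at 0.42 and 1.10 TPM.

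Pairs of related genes changed with this choice as well. Ulk1 exceeded Ulk2 by 1.12 times in replicate 1 and was 0.923 times Ulk2 in replicate 2 on CCDS transcripts. Uvrag over Atg14 came to 1.70 and 1.51 times, down from 8.71 and 6.81. Atg4b over Atg4a came to 1.63 and 1.17 times, against 3.78 and 4.13 times for the whole genes. Nbr1 over Sqstm1 stayed near 1, at 1.10 and 1.08 times. Wipi2 over Wipi1 rose from 4.89 and 4.85 times to 14.8 and 5.71 times, on a Wipi1 level of 0.42 and 1.10 TPM. These ratios are from the first table. On CCDS transcripts of the second, Nbr1 was below Sqstm1, at 18.3 and 28.4 TPM against 22.4 and 32.4. Atg4b (2.99 and 4.16 TPM) led Atg4a (2.86 and 4.68) only in replicate 1. Wipi2 was at 3.09 and 5.16 TPM and Wipi1 at 1.33 and 2.19 TPM. Their ratio thus did not rise from the 3.92 and 4.01 times of whole genes in that table. Ulk1 again led Ulk2 only in replicate 1, and Uvrag stayed above Atg14.

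**Figure D4:**
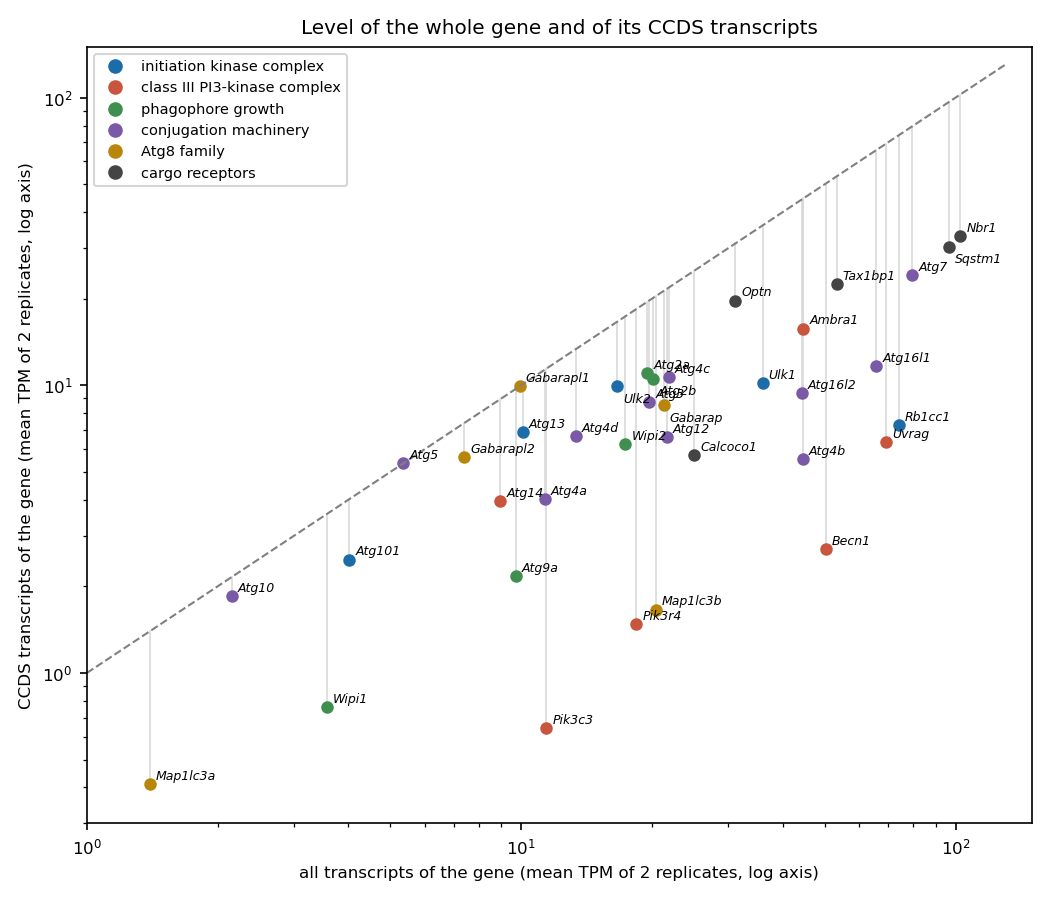
Mean TPM of 2 replicates over all transcripts of each autophagy gene (horizontal, log axis) against mean TPM over its CCDS transcripts (vertical, log axis), coloured by role, with a grey line from each point up to the dashed line of equality. Values are from the first table, where Atg5 and Gabarapl1 lie on the line, whereas Becn1, Pik3r4, Map1lc3b and Pik3c3 lie far below it. In the second transcript table the CCDS share was 59.2% and 64.2% for Atg5 and 53.5% and 63.4% for Gabarapl1.

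Map1lc3b was another gene whose CCDS transcript held little of its TPM, though the mean share was lower still in Becn1 (5.45%) and Pik3c3 (5.71%). Its gene, at chr8:121590361-121598760 on the plus strand, had 642 and 1030 counts. Map1lc3b-201, the 4-exon transcript with a CCDS tag that encodes LC3B, took 6.27% and 9.89% of the TPM, or 1.24 and 2.08 TPM. Map1lc3b-202, of 4138 bases, retains the intron of 2440 bases whose start is printed above and took 49.7% and 51.5%. Map1lc3b-204, a single exon that starts in the first exon and covers 2545 bases of intron 1, took 44.1% and 38.6%. It is annotated as protein-coding, yet shares 0 coding bases with Map1lc3b-201, so it is not in the retained-intron share given for the gene. In the second transcript table Map1lc3b-201 took 8.80% and 8.21%. On CCDS transcripts the Atg8 genes then stood in another order: Gabarapl1 at 10.3 and 9.51 TPM, Gabarap at 8.60 and 8.47 TPM, Gabarapl2 at 6.30 and 4.94 TPM, LC3B at 1.24 and 2.08 TPM and LC3A at 0.34 and 0.48 TPM. In the second table LC3B (1.07 and 1.67 TPM) and LC3A (0.848 and 2.71 TPM) were again the lower 2, but LC3A exceeded LC3B in replicate 2. The other 3 lay close together there: Gabarapl2 at 8.34 and 11.1 TPM, Gabarapl1 at 7.01 and 11.8, and Gabarap at 7.48 and 9.65. The order of these 3 thus differed between the tables. Gabarap exceeded Map1lc3b by 6.94 and 4.07 times on this measure, and was 1.18 and 0.910 times Map1lc3b for the whole genes. The Gabarapl1 value carries a limit, since 28.3% of its exonic bases are shared with 1700101I11Rik on the opposite strand.

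The second transcript table was set against the first per gene, as log2 of second over first TPM after adding 0.1. It assigned more reads to members, with a median of 1.69 and 1.73 times the counts, close to 1.67 and 1.69 times over protein-coding genes. In TPM the members' median difference was -0.15 in replicate 1 and 0.57 in replicate 2, next to -0.03 and 0.62 over 11959 protein-coding genes. Of the 37 genes, 12 were higher in the second table in replicate 1, beside 48.1% of protein-coding genes, and 34 in replicate 2, beside 88.3%. After TPM was rescaled to nuclear protein-coding genes, the members' medians were -0.10 and -0.02, next to 0.02 and 0.03 over protein-coding genes. In both replicates Atg13 and Atg10 exceeded 2-fold in favour of the second table, beside 16.7% of genes, and no member was 2-fold lower, beside 0.125%. In counts, 7 members exceeded 2-fold, beside 37.2% of genes. Atg13 went from 10.04 and 10.1 TPM to 24.2 and 38.0 TPM between the tables. Atg10 went from 2.91 and 1.40 TPM to 7.38 and 8.20 TPM, and its counts from 36 and 29 to 174 and 194. Map1lc3a was at 1.71 and 2.81 TPM there, so it reached 1 TPM in both replicates. Nbr1 remained the highest member, at 114 and 182 TPM.

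**Figure D5:**
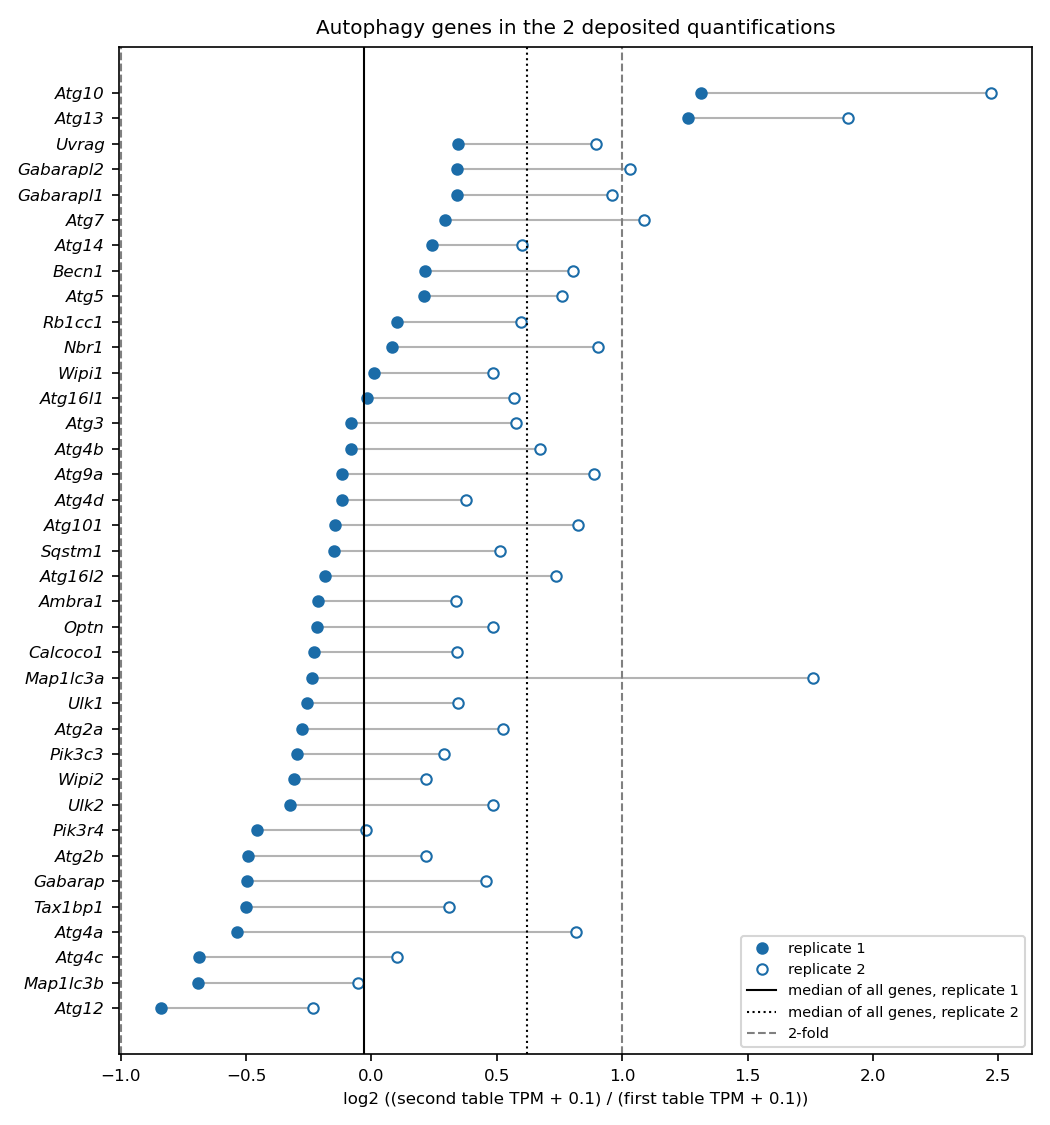
Log2 ratio of TPM in the second to the first deposited quantification for the 37 autophagy genes, with filled points for replicate 1 and open points for replicate 2. The open points lie to the right of the filled ones, as do the all-gene medians (vertical lines at -0.03 and 0.62); Atg13 and Atg10 alone pass the dashed 2-fold line in both replicates.

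A further 31 genes of the pathway lie outside the 37: upstream regulators and membrane proteins, the fusion machinery, and receptors for organelles. Of these, 30 reached 1 TPM in both replicates. The median of the 31 was 18.2 TPM, close to the 20.1 TPM of the members. Their replicate medians were 18.7 and 17.1 TPM (SD 1.17, n = 2). Tecpr1, which binds Atg5 and acts in autophagosome maturation, was highest at 478 and 433 TPM, above every member. Vmp1, a lipid scramblase of the endoplasmic reticulum, was at 161 and 157 TPM, and Wdfy3, a large scaffold for the clearance of aggregates, at 97.04 and 93.3 TPM. The lowest were Atg9b, the paralogue of Atg9a, at 0.24 and 0.34 TPM, and Fundc1, a mitochondrial receptor, at 3.60 and 4.02 TPM.

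The genes were spread over 18 chromosomes. Chromosome 11 held 6 of them, 16.2%, against 7.44% of protein-coding genes, and Atg13 and Ambra1 lie 19557 bases apart on chromosome 2, on opposite strands. Promoter windows from RefSeq (GRCm38.p6; 250 bases before to 50 after the start) matched 31 of the 37 by symbol. The letters CACGTG, a palindrome that many basic helix-loop-helix factors can bind, stood in 4 of the 31, or 12.9%: Atg3, Atg5, Atg7 and Atg14. They stood in a window of 8.09% of all 27025 genes with such windows, and the match is a description only. For Atg7 and Atg14 the RefSeq window lay inside the GENCODE gene, downstream of its annotated start. Of the 4, Atg7 was the highest member of its group, while Atg5 and Atg14 were among the 9 members under 10 TPM.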

How the data were processed

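Chromatin-fraction total RNA of 2 libraries (1 group, 2 replicates) was used as deposited, with a gene table and a pair of transcript tables for each. Notes deposited by the authors trace the gene table and its companion transcript table to transcriptome alignments, and the other transcript table, called the second, to the raw reads; all use GENCODE M21 on mm10. No source used here gives the aligner, quantifier, versions or strand setting. Per the file headers, the values are expected counts (estimated, not whole), TPM and, in another unit, the posterior SD of each count, at most 1.62% of a member's count. TPM keeps no depth and is shared with all other transcripts: nuclear protein-coding genes held 26.2% and 24.6% of it in the gene table, and 25.2% and 37.1% in the second transcript table. The annotation's 55536 genes were all in the gene table, 86 of them not in the second transcript table; 26345 entries that are not annotated genes were left out of levels, tests and scaling.

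A gene counted as detected when each replicate had 1 TPM or more. Expected counts were rounded and scaled with edgeR 4.0.16 (TMM), a prior of 0.5 was added, and ratios were taken at a mean of 50 counts or more. No test was made, since there is 1 group. Intervals are exact at 95%, Poisson for counts and binomial-based for ratios, and cover counting error only. Retained-intron and CCDS shares came from the first transcript table, at 100 counts or more in each replicate. Alternatives used DESeq2 1.42.0 size factors and other thresholds. The replicate ratios, the transcript-class shares and the 2-fold calls between tables were tested on simulated data, and the other steps were not. Named genes were the highest and lowest of each role by mean TPM, all Atg8 genes and cargo receptors, the extremes of the replicate ratios and shares, and genes 2-fold apart between tables; other members were given as background to them, and the CCDS level and its examples were added after the values were seen. Members and lists were chosen with earlier results of these data known. Sequences came from the GENCODE M21 transcripts and RefSeq windows. Python 3.11.15, R 4.3.3, pandas 2.3.3 and scipy 1.17.1 were used.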

Additional observations from a re-analysis of the deposited data

How the results depend on the processing

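The number of detected members was 36, and lay between 33 and 37 under all alternatives run (other thresholds, tables and units, single replicates and CCDS transcripts). In scaled counts, no member's ratio between replicates passed 2-fold under any scaling, filter or table tried; in TPM, Map1lc3a and Atg10 did, at 2.67 and 2.08 times higher in replicate 1. The median member level of 20.1 TPM became 18.8 TPM in the second transcript table, 18.5 TPM as posterior mean, 79.3 TPM when rescaled to nuclear protein-coding genes, and, as alternatives chosen after seeing the data, 6.66 TPM on CCDS transcripts and 5.40 TPM on those of the second table. Without 1 replicate it was 19.9 to 20.0 TPM. The median log2 ratio between replicates of -0.003 became 0.11 with total counts only, -0.025 with a mean of at least 10 counts or with no filter, and 0.042 in the second transcript table. The median retained-intron share of 56.0% became 25.7% as a share of expected counts, 51.1% in the second transcript table and 66.3% at 500 counts or more. Without 1 replicate it was 55.4% to 56.7%. The 17 members at 50% or more became 8 by expected counts, and 16 without either replicate. The 2 members apart between tables became 7 by counts per gene (beside 37.2% of all genes), and 2 to 5 without 1 replicate. The 5 without replicate 1 were Atg13, Atg7, Atg10, Map1lc3a and Gabarapl2. No share over all genes was taken for a single replicate, and the all-gene median log2 difference in replicate 2 was 0.62. After rescaling to nuclear protein-coding genes, Atg7 was at 0.50 and Gabarapl2 at 0.45 in replicate 2, under 2-fold. Atg13, Atg10 and Map1lc3a stayed past it, at 1.32, 1.94 and 1.27. For these changes the cause was not tested. No paired analysis was possible because there is 1 group. Leaving out a replicate was not possible for the ratio between replicates, which needs both. Depth limits Map1lc3a, Atg10 and Atg101 most, each with a mean under 50 counts.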
